A study of Rattus norvegicus with 30 samples.

Results

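The blood-testis barrier junction genes followed here were 9 members chosen by name: Cldn11, Cldn3, Ocln, Tjp1, F11r, Jam2, Jam3, Gja1 and Cdh2. All 9 were found among the 17322 genes of the deposited table, by their Entrez Gene identifiers (84588, 65130, 83497, 292994, 116479, 619374, 315509, 24392 and 83501, in that order). The rule was a list of names with no expression threshold, drawn up with earlier results of these data known. Their mRNA was measured by bulk RNA-seq in whole testes of Wistar Han rats at 6 in vivo ages and in cultured tissues at 4 times. The in vivo groups ran from 8.5 dpp (days postpartum) to 53.5 dpp, through 14.5 dpp, 24.5 dpp, 30.5 dpp and finally 36.5 dpp. They had 3 libraries each except for 14.5 dpp with 2. A further 14.5 dpp library, labelled as an outlier, was listed at 0 for every gene and was left out. The study reports that a sample of this age was excluded because its profile differed from those of the other replicates. The cultured tissues were fragments of 8.5 dpp testes kept at the gas-liquid interphase on agarose and sampled after 6, 16, 22 and 28 days, named D6, D16, D22 and D28, with 3 libraries at each time. The medium was αMEM with KnockOut serum replacement, retinol and vitamin E. No hormone treatment is named in the labels, and no genetic change was made in either arm. Each cultured library came from a pool of 12 explants, taken from at least 3 juvenile males, whose central necrotic area had been removed, so the spread between cultured libraries is that between pools. By age, D6 is matched to 14.5 dpp, D16 to 24.5 dpp, D22 to 30.5 dpp and D28 to 36.5 dpp.

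The blood-testis barrier lies between neighbouring Sertoli cells near the base of the seminiferous tubule. It joins tight junctions with adherens-type junctions (the basal ectoplasmic specialization), gap junctions and desmosomes in a single belt, and it keeps meiotic and post-meiotic germ cells apart from blood-borne molecules. In the rat it is assembled during prepubertal development, and it is opened and rebuilt as spermatocytes pass towards the lumen. The claudins and occludin are the sealing proteins that span the membrane. ZO-1 (Tjp1) ties them to actin, and the junctional adhesion molecules JAM-A, JAM-B and JAM-C (F11r, Jam2 and Jam3) are immunoglobulin-type proteins at the same contacts. Connexin 43 (Gja1) forms gap junction channels, and N-cadherin (Cdh2) is the classical cadherin of the adherens part.

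Values are FPKM, which scale read numbers to transcript length and to the mapped reads of each library, so that levels can be set side by side between genes per length. Relative depth ranged from 0.849 to 1.54 times that of the first 8.5 dpp library, 12520 to 13563 genes were above 0 in a library, and replicates correlated with r of 0.965 to 0.985 (log2 scale, across genes). The library of 24.5 dpp replicate 3 was the highest of its group for 9 of 9 members, 30.5 dpp replicate 2 the lowest of its group for 8, D28 replicate 1 the lowest for 6 and D28 replicate 2 the highest for 6. A gene was called when limma with Benjamini-Hochberg adjustment over all tested genes gave an adjusted p of at most 0.05 and the group medians differed by a ratio of at least 2. All differences below are on the log2(FPKM + 1) scale, which understates the change of low genes such as Cldn3, and the error given with each is its SE. Since whole tissue was sequenced, fewer cells of a type and less RNA per cell cannot be told apart.

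The RefSeq promoter table (GRCr8, a later rat build than the rn6 of the deposited values) held 7 of the 9 members. Jam3 and Cdh2 had no entry. The 250 bases before the start of Cldn11 and of Cldn3 are shown. They were chosen because Cldn11 was the only member called at the earliest step in vivo and Cldn3 was highest at the latest ages. Capitals mark matches to 5 short motifs on either strand. The Cldn11 window is chr2:114149540-114149789 on the minus strand and the Cldn3 window is chr12:27346548-27346797 on the minus strand.
Cldn11: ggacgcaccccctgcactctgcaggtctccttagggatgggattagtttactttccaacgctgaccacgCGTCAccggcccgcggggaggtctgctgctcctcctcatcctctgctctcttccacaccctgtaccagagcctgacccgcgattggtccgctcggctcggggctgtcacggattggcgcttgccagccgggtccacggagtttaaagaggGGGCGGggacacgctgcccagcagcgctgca
Cldn3: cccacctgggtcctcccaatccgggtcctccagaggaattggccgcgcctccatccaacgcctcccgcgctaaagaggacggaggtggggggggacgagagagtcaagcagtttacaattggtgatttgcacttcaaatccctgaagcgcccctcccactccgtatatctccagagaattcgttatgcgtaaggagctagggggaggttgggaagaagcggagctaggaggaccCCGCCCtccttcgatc
The Cldn11 window held 64.8% G and C and the Cldn3 window 59.2%, against a median of 51.2% over the 33469 promoters of the table. Both windows held 1 GC box, searched as GGGCGG and found in 30.5% of all promoters. The Cldn11 window also held 1 CRE half-site, searched as TGACG and found in 18.2% of all promoters. Neither window had a match to the steroid receptor half-site, searched as AGAACA and found in 17.5% of all promoters. The GATA factor motif was searched as AGATAA and the share of all promoters with it was 10.3%, and the SOX motif, searched as AACAAT, was in 10.3% as well, with no match in either window. These are matches of letters only, and no motif overlapped another.

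Cldn11, which encodes claudin 11, the main sealing protein of the Sertoli cell tight junction, had the largest rise of the 9 members from 8.5 to 14.5 dpp. All other members except Gja1 also had higher mean levels at 14.5 dpp, with smaller differences. The 8.5 dpp libraries of Cldn11 were uneven, at 130, 33.9 and 25.0 FPKM. At 14.5 dpp the libraries had 454 and 406 FPKM, both above all 8.5 dpp libraries. The difference was 3.13 ± 0.49 (adjusted p = 0.000217, limma with Benjamini-Hochberg adjustment), the only one of the 9 members called at this step, where 14.7% of all tested genes were called. Afterwards Cldn11 had 172, 202 and 298 FPKM at 24.5 dpp, 114, 67.3 and 74.4 FPKM at 30.5 dpp, 65.9, 57.4 and 48.7 FPKM at 36.5 dpp and 49.6, 42.1 and 43.3 FPKM at 53.5 dpp. The step from 24.5 to 30.5 dpp was called (-1.38 ± 0.43, adjusted p = 0.0112), and the call was lost without 24.5 dpp replicate 3 (-1.16, adjusted p = 0.0518). In adult testes the level overlapped that of 8.5 dpp, with a difference of -0.10 ± 0.43 (adjusted p = 0.836). Without 8.5 dpp replicate 1 the groups no longer overlapped. The difference was then 0.61 (adjusted p = 0.0354) and was not called, as the ratio of medians was below 2.

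Cldn3, which encodes claudin 3, known in the mouse as an androgen-responsive claudin of newly built barrier contacts, had the opposite course. It stayed at 0.126 to 0.391 FPKM in every library of 8.5, 14.5 and 24.5 dpp. At 30.5 dpp the libraries were spread from 0.126 through 0.540 to 1.09 FPKM, overlapping the younger ages. The values were then 5.97, 6.44 and 4.70 FPKM at 36.5 dpp and 43.9, 42.8 and 27.2 FPKM at 53.5 dpp, with no overlap between these ages or with any younger one. The late differences were 2.12 from 30.5 to 36.5 dpp and 2.52 from 36.5 to 53.5 dpp. They are given as a description with no test, because Cldn3 passed the filter on low values only through 30.5 dpp and older testes. None of the other members was called in either step. Of all tested genes, 7.49% were called in the first of these steps (6.08% as higher) and 6.54% in the second (2.62% as higher). The share of Cldn3 in the summed FPKM of both claudins was 0.471% ± 0.317 (SD, n = 3) at 8.5 dpp and 0.0697% ± 0.00947 (SD, n = 2) at 14.5 dpp. It was 9.06% ± 0.923 at 36.5 dpp and 45.3% ± 6.06 at 53.5 dpp (SD, n = 3 each). At 53.5 dpp the mean level per length was 45.0 FPKM for Cldn11 and 37.9 FPKM for Cldn3, with overlapping libraries.

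Ocln, the gene of occludin, had 17.3, 15.3 and 17.5 FPKM at 8.5 dpp and 22.5 and 30.5 FPKM at 14.5 dpp. It was at 2.66, 2.10 and 2.27 FPKM at 53.5 dpp, below every younger library except 1 of 36.5 dpp at 2.60 FPKM. The fall from 8.5 to 53.5 dpp was -2.40 ± 0.18 (adjusted p = 5.22e-09). Tjp1, the scaffold gene, changed less: 36.1, 36.9 and 38.9 FPKM at 8.5 dpp against 18.3, 16.3 and 18.0 FPKM at 53.5 dpp, a difference of -1.05 ± 0.08 (adjusted p = 8.01e-09). The Tjp1 groups did not overlap, although with quantile normalization the difference was -0.69 and no longer called.

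Among the junctional adhesion molecules, F11r had 53.4 to 57.8 FPKM at 8.5 dpp and 9.29 to 9.52 FPKM at 53.5 dpp (-2.45 ± 0.11, adjusted p = 1.95e-11). Jam2, highest in vivo at 14.5 dpp with 107 and 102 FPKM, had 63.4 to 70.0 FPKM at 8.5 dpp and 8.42 to 11.7 FPKM at 53.5 dpp (-2.69 ± 0.18, adjusted p = 2.46e-09). Jam3, whose product is also known on spermatids, differed from both. It was highest at 24.5 dpp, with 32.9, 28.7 and 34.0 FPKM against 17.3, 16.3 and 18.5 FPKM at 8.5 dpp and 9.52, 10.3 and 8.19 FPKM at 53.5 dpp. No single step of Jam3 was called, because the ratio of medians stayed below 2 at each, but the F test over the 6 ages was called with a largest ratio of 3.46 (adjusted p = 2.54e-06).

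Gja1, the connexin 43 gene, was the most abundant member at 8.5 dpp, with 177, 137 and 155 FPKM, and had 153 and 156 FPKM at 14.5 dpp. It fell at the next step (60.9, 67.2 and 79.1 FPKM at 24.5 dpp, -1.16 ± 0.14, adjusted p = 8.28e-06) and had 15.2, 14.1 and 16.9 FPKM at 53.5 dpp. The fall from 8.5 to 53.5 dpp, -3.26 ± 0.13 (adjusted p = 5.52e-12), was the steepest of the 9. Cdh2, the N-cadherin gene, had 14.7 to 16.6 FPKM at 8.5 dpp, 18.6 and 23.9 FPKM at 14.5 dpp and 2.70 to 2.98 FPKM at 53.5 dpp (-2.12 ± 0.16, adjusted p = 6.24e-09).

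Leaving Cldn3 aside, the F test over the in vivo series called all the other members, beside 90.2% of all tested genes, so their share is near the background. Cldn3 passed the filter on low values only through 30.5 dpp and older testes, so its F test is not counted. Between 8.5 and 53.5 dpp, 6 members fell and 2 were not called (Cldn11 and Jam3). Cldn3 rose, given as a description with no test. In that comparison 73.9% of genes were called, 50.2% as falls and 23.7% as rises. The members' median difference was -2.12 against -0.74 for all tested genes. The falls were concentrated between 24.5 and 30.5 dpp, where 6 of 9 members fell and 37.6% of genes were called, 24.5% as falls: Cldn11, Ocln, F11r, Jam2, Gja1 and Cdh2 had differences of -1.21 to -1.38. From 14.5 to 24.5 dpp 2 members fell (Gja1 and Jam2) against 35.6% of genes called, 21.4% as falls. The Jam2 call at that step (-0.97 ± 0.21) was lost on the ratio of medians without 24.5 dpp replicate 1 or replicate 2 (-0.83 and -0.85).

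**Figure D1:**
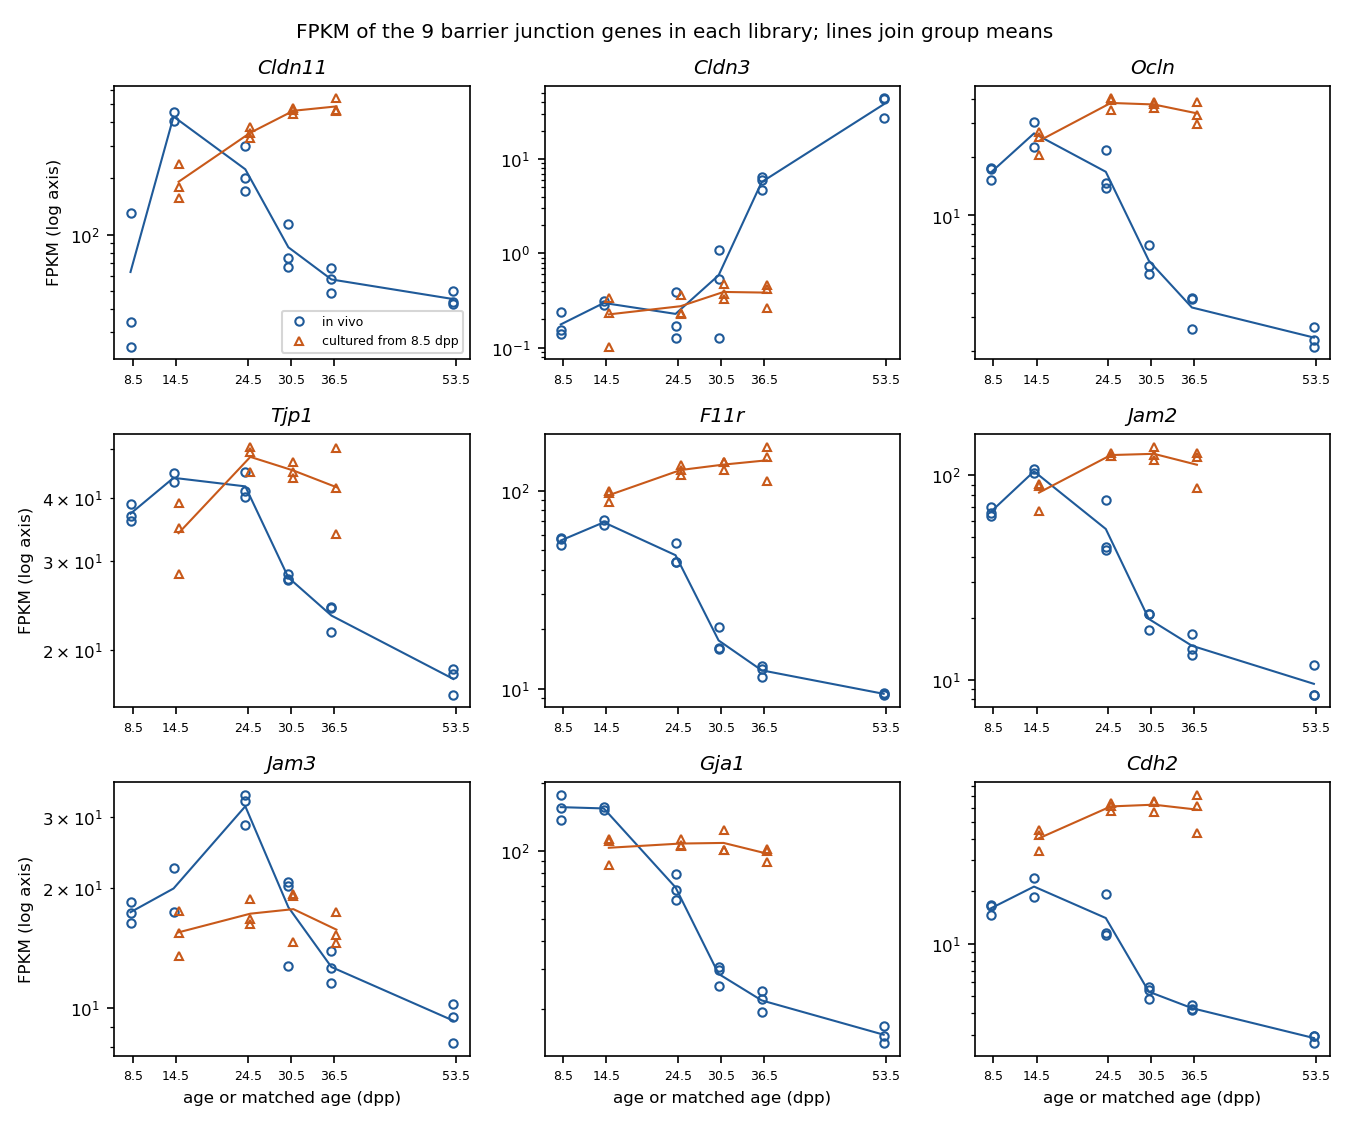
FPKM on log axes for each of the 9 members against age or matched age in dpp, with circles for in vivo libraries, triangles for cultured libraries and lines joining group means. In vivo, Cldn11 peaks at 14.5 dpp (454 and 406 FPKM) and Cldn3 rises only from 36.5 dpp, while in culture Cldn11 reaches 458 to 538 FPKM at D28 and Cldn3 stays between 0.103 and 0.476 FPKM.

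Sertoli cell and germ cell markers moved with these courses in vivo. The summed FPKM of 15 Sertoli cell markers was 2395 to 2576 at 8.5 dpp, 811 to 947 at 36.5 dpp and 464 to 620 at 53.5 dpp. The sum of 12 germ cell markers was 38.3 to 40.4 at 8.5 dpp, 4003 to 5387 at 36.5 dpp and 13430 to 18975 at 53.5 dpp. Of the tested markers, 10 of 14 Sertoli cell genes fell and 10 of 12 germ cell genes rose between 8.5 and 53.5 dpp. Endothelial markers, which share junction proteins with this list, went from 44.3 to 50.0 down to 6.74 to 7.66. Markers of other epithelia went from 115 to 119 down to 15.3 to 20.7. Among the defining germ cell markers, Prm1 was listed at 0 in every library of 8.5, 14.5 and 24.5 dpp and was above 0 from 30.5 dpp. The part of these cell types in the members' levels was not tested.

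**Figure D2:**
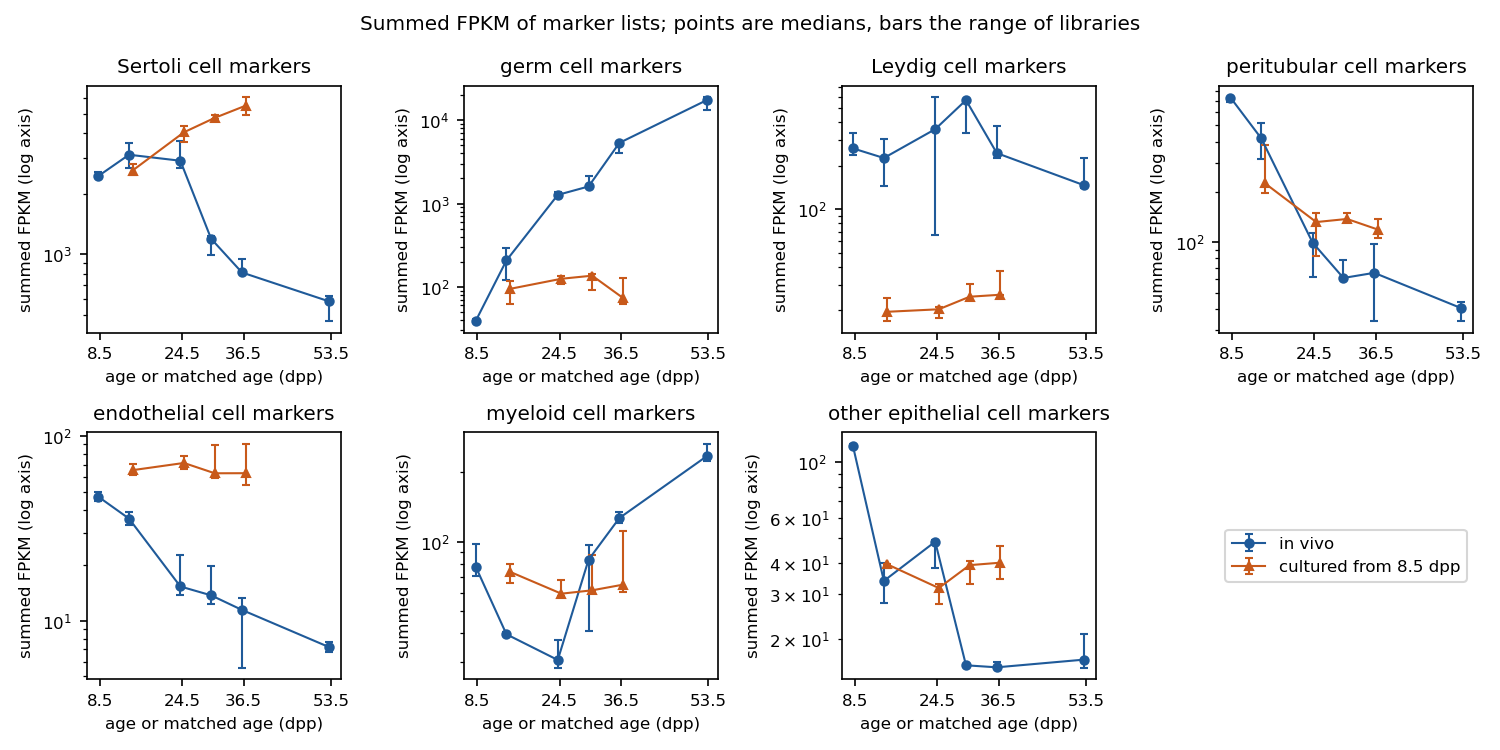
Summed FPKM (log axes) of 7 marker lists against age or matched age in dpp, with group medians as points and the range of libraries as bars. In vivo Sertoli cell markers end at 464 to 620 and germ cell markers at 13430 to 18975 at 53.5 dpp, whereas at D28 they are at 4942 to 6034 and 61.6 to 128.

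Each member was therefore also given relative to the mean of Sox9 and Wt1, transcription factor genes that mark Sertoli cells. This reference was 5.99 ± 0.20 on the log2(FPKM + 1) scale at 8.5 dpp, 6.54 ± 0.25 at 14.5 dpp (SD, n = 2), 5.03 ± 0.21 at 24.5 dpp and 2.76 ± 0.10 at 53.5 dpp (SD, n = 3 each). On this scale the F test over the 6 ages called Cldn11, Ocln, Tjp1, Jam3 and Cdh2, where 95.4% of all tested genes were called. F11r, Jam2 and Gja1 were not called by it, and Cldn3 is not counted because its low values follow the reference. Cldn11 rose by 2.58 ± 0.41 from 8.5 to 14.5 dpp (adjusted p = 0.000213) and was on average between 2.21 and 2.83 log2 units above the reference at each age from 14.5 dpp on. It was the only member called at that step, against 14.6% of genes called.

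Cldn3 aside, the difference between 53.5 and 8.5 dpp turned from negative to positive under this scaling for all members but Gja1. Relative to Sox9 and Wt1, Tjp1 was 2.19 ± 0.15 higher (adjusted p = 3.42e-10) and Jam3 2.40 ± 0.17 higher (adjusted p = 6.39e-10) at 53.5 than at 8.5 dpp. The median of all genes moved by 2.5 in the same direction, so neither stood above it. Gja1 was 1.3 log2 units above the reference at 8.5 dpp and 1.27 at 53.5 dpp, with a difference of -0.02 ± 0.14 (adjusted p = 0.874). With a reference of 6 Sertoli cell markers Gja1 was 1.11 above it at 8.5 dpp and 0.72 at 53.5 dpp. F11r, Jam2 and Ocln were 0.78 ± 0.14, 0.55 ± 0.16 and 0.83 ± 0.17 higher at 53.5 than at 8.5 dpp and were not called, since the ratio of medians was below 2. Cdh2 was 1.11 ± 0.13 higher and called (adjusted p = 4.95e-07), a call lost with a reference of 6 Sertoli cell markers (0.75). In total 4 of the members other than Cldn3 were called in this comparison (Cldn11, Tjp1, Jam3 and Cdh2), and 83.4% of genes were called. Cldn3 is not read on this scale below 30.5 dpp, because its values there are near the pseudocount and follow the reference.

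**Figure D3:**
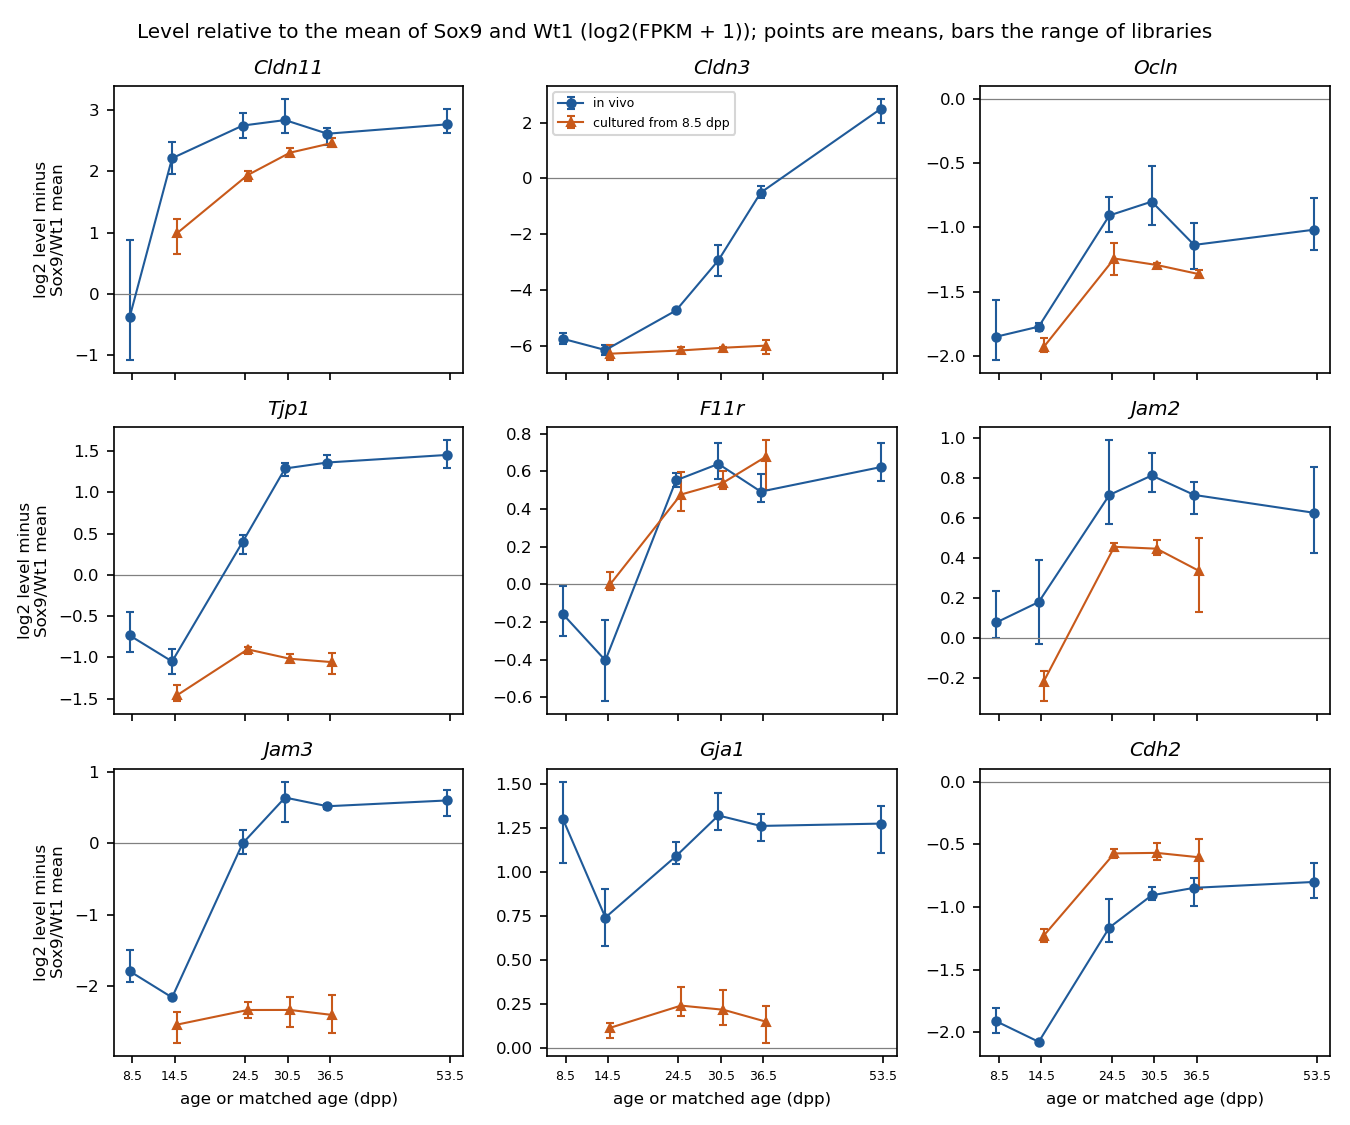
Level of each member minus the mean of Sox9 and Wt1 (log2(FPKM + 1)) against age or matched age in dpp, with group means as points and the range of libraries as bars. Cldn11 is 2.76 above the reference at 53.5 dpp and 2.46 above it at D28, whereas Tjp1 and Jam3 separate, at 1.36 and 0.52 at 36.5 dpp against -1.06 and -2.41 at D28.

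Cultured tissues were next set against testes of the same age, the comparison that asks how far explants followed development in vivo. At D6 the tight junction gene Cldn11 had 239, 157 and 180 FPKM, below the 454 and 406 FPKM of 14.5 dpp. The difference of -1.18 ± 0.20 (adjusted p = 0.0174) was the only one called among the 8 members that passed the filter on low values, and 7.94% of all tested genes were called. This call was lost when 14.5 dpp replicate 1, 14.5 dpp replicate 2 or D6 replicate 3 was left out (adjusted p of 0.0674, 0.0625 and 0.066). Cldn3, at 0.103 to 0.339 FPKM at D6 and 0.286 and 0.311 FPKM at 14.5 dpp, was not tested.

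At D16, 4 of 8 tested members were higher than at 24.5 dpp, in a comparison where 43.6% of genes were called, 25.3% as higher. Cdh2 had 61.6, 64.0 and 57.6 FPKM against 11.3, 11.5 and 19.3 FPKM (2.09 ± 0.20, adjusted p = 0.000125). F11r, Jam2 and Ocln were higher by 1.42 ± 0.12, 1.24 ± 0.22 and 1.16 ± 0.18 with no overlap between libraries. Jam3 was the exception in direction: it had 18.7, 16.3 and 16.7 FPKM in culture against 32.9, 28.7 and 34.0 FPKM in vivo (-0.85 ± 0.11, adjusted p = 0.000388), with a ratio of medians of 0.508 that missed the call. At D22, 6 of the 8 members other than Cldn3 were higher than at 30.5 dpp (65.0% of genes called, 42.1% as higher). They were Cdh2, F11r, Jam2, Ocln, Cldn11 and Gja1, by 1.89 to 3.33. Cldn3 is not counted, because it passed the filter on low values only through 30.5 dpp.

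By D28, 6 members other than Cldn3 were called against 36.5 dpp, all as higher, where 70.3% of all tested genes were called, 46.7% as higher and 23.6% as lower. The members' median difference was 2.84 against 0.64 for all tested genes. Cldn11 had 467, 538 and 458 FPKM in culture and 65.9, 57.4 and 48.7 FPKM in vivo (3.07 ± 0.14, adjusted p = 7.01e-07). Ocln had 29.6, 38.3 and 33 FPKM in culture and 3.73, 2.60 and 3.74 FPKM in vivo (3.00 ± 0.15, adjusted p = 1.3e-06). Neither pair of groups overlapped. Tjp1 had 33.9, 50.4 and 41.9 FPKM in culture and 24.2, 21.7 and 24.4 FPKM in vivo, and its difference of 0.80 ± 0.15 was not called, with a ratio of medians of 1.73.

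The adhesion molecules were split at D28. F11r had 113, 167 and 148 FPKM in culture and 13.1, 12.6 and 11.5 FPKM in vivo (3.41 ± 0.16, adjusted p = 7.88e-07), and Jam2 had 86.7, 128 and 123 FPKM in culture and 16.7, 14.1 and 13.2 FPKM in vivo (2.84 ± 0.17, adjusted p = 3.05e-06). Jam3 had 17.4, 14.6 and 15.2 FPKM in culture and 13.9, 11.6 and 12.6 FPKM in vivo. That difference (0.29 ± 0.12) was not called and turned to -0.065 with quantile normalization. Gja1 had 89.8, 100.2 and 103 FPKM in culture and 23.9, 19.4 and 22.2 FPKM in vivo (2.11 ± 0.12, adjusted p = 1.85e-06). Cdh2 had the largest difference, with 43.3, 71.1 and 61.3 FPKM in culture and 4.17, 4.24 and 4.43 FPKM in vivo (3.47 ± 0.18, adjusted p = 1.37e-06).

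Cldn3 had lower values in culture at D28. Its libraries had 0.422, 0.265 and 0.466 FPKM against 5.97, 6.44 and 4.70 FPKM at 36.5 dpp, with no overlap, a difference of -2.27 and a mean FPKM that was 14.8 times higher in vivo. In all 12 cultured libraries Cldn3 lay between 0.103 and 0.476 FPKM, within the 0.126 to 1.09 FPKM of testes up to 30.5 dpp except for 1 D6 library. It passed the filter on low values only through the in vivo groups, where it is high, so its difference at D28 is given as a description with no test. Its share of the summed claudin FPKM at D28 was 0.0803% ± 0.0276 (SD, n = 3). Germ cell markers moved with it: their sum was 61.6 to 128 at D28 and 4003 to 5387 at 36.5 dpp, and 10 of 12 were lower in culture. Leydig cell markers were also far apart, at 25.4 to 37.3 at D28 and 228 to 379 at 36.5 dpp. In vivo their sum was 239 to 339 at 8.5 dpp, where Cldn3 was low, and 140 to 227 at 53.5 dpp, where Cldn3 was highest. The part of either in the Cldn3 difference was not tested.

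**Figure D4:**
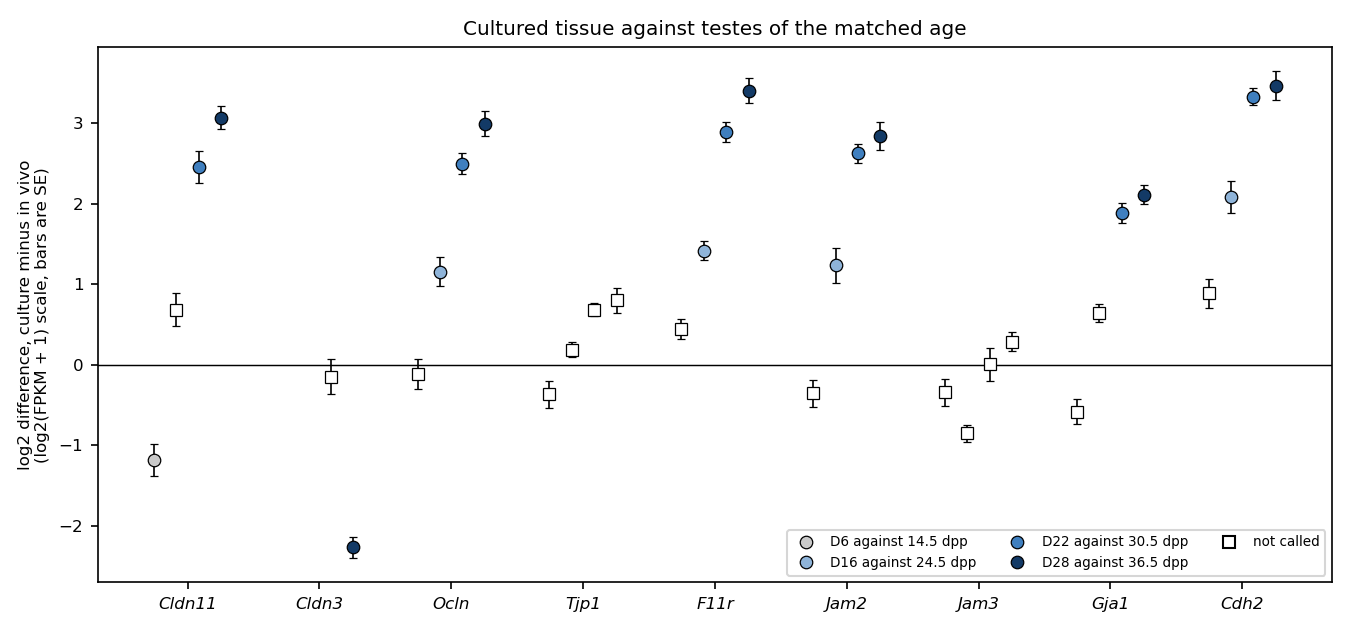
Difference between cultured tissue and testes of the matched age for each member on the log2(FPKM + 1) scale, with SE bars, filled circles for called differences and open squares for the others. From D16 to D28 Cdh2, F11r, Ocln and Jam2 are called as higher at every time, and Tjp1 and Jam3 are never called. Cldn11, Gja1 and Tjp1 also lie above 0 at these times. Cldn3 is drawn as a filled circle at D28 (-2.27). It passed the filter on low values only through its in vivo level, so its points are a description with no test.

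Relative to Sox9 and Wt1, most of these differences from the matched age were smaller. The reference itself was 6.47 ± 0.15 at D28 and 3.25 ± 0.10 at 36.5 dpp (SD, n = 3 each), and the sum of the Sertoli cell markers was 4942 to 6034 and 811 to 947. With the reference subtracted, the differences of Cldn11, Ocln, F11r, Jam2 and Cdh2 lay between -0.38 and 0.24 and were not called. Tjp1 was lower in culture by 2.42 ± 0.13 (adjusted p = 2.17e-07), Jam3 by 2.93 ± 0.16 (adjusted p = 2.31e-07), and Gja1 by 1.11 ± 0.13 (adjusted p = 3.42e-05). Besides Cldn3, which is not read on this scale, these 3 members were the ones called, in a comparison where 86.7% of genes were called, 86.3% as lower, and the median of all genes was -2.58. Gja1 stood 0.12 to 0.24 log2 units above the reference at every culture time and 0.74 to 1.32 above it at every in vivo age. Against the 6 markers it lay below the reference at D16, D22 and D28 (-0.24, -0.30 and -0.49). The 6-marker reference itself went from 6.60 at D6 to 7.11 at D28, whereas that of Sox9 and Wt1 went from 6.58 to 6.47.

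At 14.5 dpp Cldn11, Ocln, Tjp1, F11r, Jam2 and Cdh2 had their highest in vivo means. Against this age, 2 of 8 tested members were called over D16, D22 and D28 by the F test (16.2% of all tested genes called). Cdh2 was higher at each time, by 1.49 ± 0.19, 1.52 ± 0.19 and 1.40 ± 0.19 (adjusted p of 0.000472, 0.000336 and 0.000452). F11r was higher by 0.96 ± 0.15 at D22 and 1.01 ± 0.15 at D28 (adjusted p of 0.0011 and 0.000743), with 67.5 and 71.2 FPKM at 14.5 dpp and 113 to 167 FPKM at D28. The ratio of medians for F11r was 2.01 and 2.14, just past the limit. The D22 call was lost without 14.5 dpp replicate 2, D22 replicate 2 or D22 replicate 3 (0.92, 0.94 and 0.93), and the D28 call without D28 replicate 2 (0.89). Gja1 lay below 14.5 dpp in every D28 library (-0.66 ± 0.11, adjusted p = 0.00144) with a ratio of 0.649. Cldn11 (0.18 ± 0.11), Ocln (0.34 ± 0.14), Tjp1 (-0.08 ± 0.14), Jam2 (0.09 ± 0.15) and Jam3 (-0.32 ± 0.15) were not called at D28.

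Against 8.5 dpp, the age of dissection, Cldn11 and Cdh2 were already higher at D6, by 1.95 ± 0.42 (adjusted p = 0.00194) and 1.27 ± 0.15 (adjusted p = 2.05e-05), 2 of 8 tested members where 16.1% of genes were called. At D16 there were 4 of 8, against 22.1% of genes called, with Ocln (1.14 ± 0.11) and F11r (1.17 ± 0.12) besides. At D28 the called members were Cldn11 (3.31 ± 0.42), Cdh2 (1.79 ± 0.15) and F11r (1.31 ± 0.12), 3 of 8 against 24.0% of genes called. Ocln had a ratio of medians of 1.91 at that time, below the limit (0.96 ± 0.11), and was called at D16. Within the culture, 1 of 8 members was called by the F test over the 4 times (6.71% of genes called). It was Cldn11, with a mean of 192 FPKM at D6, 352 FPKM at D16, 462 FPKM at D22 and 488 FPKM at D28, and a D28 to D6 difference of 1.36 ± 0.14 (adjusted p = 9.87e-05).

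Ordered over all 10 groups, the mean level of Cldn11 was highest at D28, followed by D22, 14.5 dpp, D16, 24.5 dpp, D6, 30.5 dpp, 8.5 dpp, 36.5 dpp and 53.5 dpp. The ranges of neighbours in this order did not overlap between 14.5 dpp and D16, between D16 and 24.5 dpp and between D6 and 30.5 dpp, and overlapped elsewhere. For Cldn3 the order began with 53.5 dpp, 36.5 dpp and 30.5 dpp, which were apart from each other. The range of 30.5 dpp overlapped that of D22, the next group. The ranges of the 7 groups from D22 on also overlapped from neighbour to neighbour.

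Other barrier genes were taken from 5 lists with 101 genes found in the table. Between 8.5 and 53.5 dpp, 60 of 88 tested genes fell and 10 rose, beside 50.2% of all tested genes called as falls and 23.7% as rises, with a median of -1.55 against -0.74 for all tested genes. Of 24 tested genes of the adherens and ectoplasmic specialization list, 18 fell and 3 rose. Itga6 and Itgb1, integrin subunits of cell adhesion, fell by 4.99 and 4.59, and Cdh5, the endothelial cadherin, fell by 4.60. Of 17 tight junction genes 12 fell and 1 rose, led by falls of 4.53 for Cldn1 and 3.15 for Lsr (the tricellular junction gene) and a rise of 3.10 for the scaffold gene Magi2. Of 13 polarity genes 8 fell and 3 rose, and Cdc42, Llgl1 and Pard6g fell by 3.41, 2.90 and 2.84. Of 14 gap junction and desmosome genes 8 fell and 2 rose: the connexin genes Gja4 and Gjc1 fell by 2.86 and 2.22, and Gja6 rose by 2.64. Of 20 barrier regulators 14 fell and 1 rose, with falls of 3.45 for the kinase gene Src, 3.29 for Akt1 and 3.25 for Csk.

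At D28 the same lists lay mostly above 36.5 dpp: 64 of 86 tested genes were higher and 7 lower, beside 46.7% and 23.6% of all tested genes, with a median of 1.61 against 0.64 for all tested genes. By list, 12 of 15 tight junction, 9 of 13 polarity, 19 of 24 adherens and ectoplasmic specialization, 11 of 14 gap junction and desmosome and 13 of 20 regulator genes were higher. In the tight junction list Lsr and Cldn1 were higher by 3.26 and 2.94, and Cdc42, Pard6b and Llgl1 led the polarity list at 3.16, 3.06 and 2.67. Itga6 was higher by 4.80 and Cdh5 by 3.65, whereas Nectin3, a nectin known from spermatid contacts with Sertoli cells, was lower by 4.13 (8.03 FPKM on average at D28 and 157 FPKM at 36.5 dpp). Gja4 and Gja5 were higher by 3.93 and 2.00, and Akt1, Src and Icam1 by 3.43, 3.05 and 2.85. Endothelial markers moved with Cdh5, Gja4 and Gja5, with sums of 54.0 to 90.8 at D28 and 5.55 to 13.2 at 36.5 dpp and 7 of 10 markers higher. Their part in these differences was not tested.

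Against 14.5 dpp the D28 lists were mostly not called: 14 of 83 tested genes were higher and 5 lower (15.3% of all genes called), with a median of -0.01 against -0.08 for all tested genes. None of 11 polarity genes was called in either direction by limma. Of 13 gap junction and desmosome genes 6 were higher and 1 lower, with Gja4, Gja6 and Gjb1 higher by 2.25, 1.70 and 1.56. In the tight junction list (2 higher and 2 lower of 16) Cldn23 was lower by 1.62, Cldn4 higher by 1.42 and Cldn1 lower by 1.10. In the adherens list (3 higher and 2 lower of 24) Cdh3 was lower by 1.58, and Jup, the plakoglobin gene, and Itga6 were higher by 1.36 and 1.12. Of 19 regulators 3 were higher, namely Icam1, Icam2 and Tgfbr2, by 1.80, 1.07 and 0.98. Endothelial markers differed as well, with sums of 32.8 to 38.6 at 14.5 dpp and 54.0 to 90.8 at D28, 4 of 10 higher and 1 lower, and their part in these differences was not tested. Cttn and Myh9 were listed at 0 in every library used, and as such genes are expressed widely these zeros are not read as absence.

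**Figure D5:**
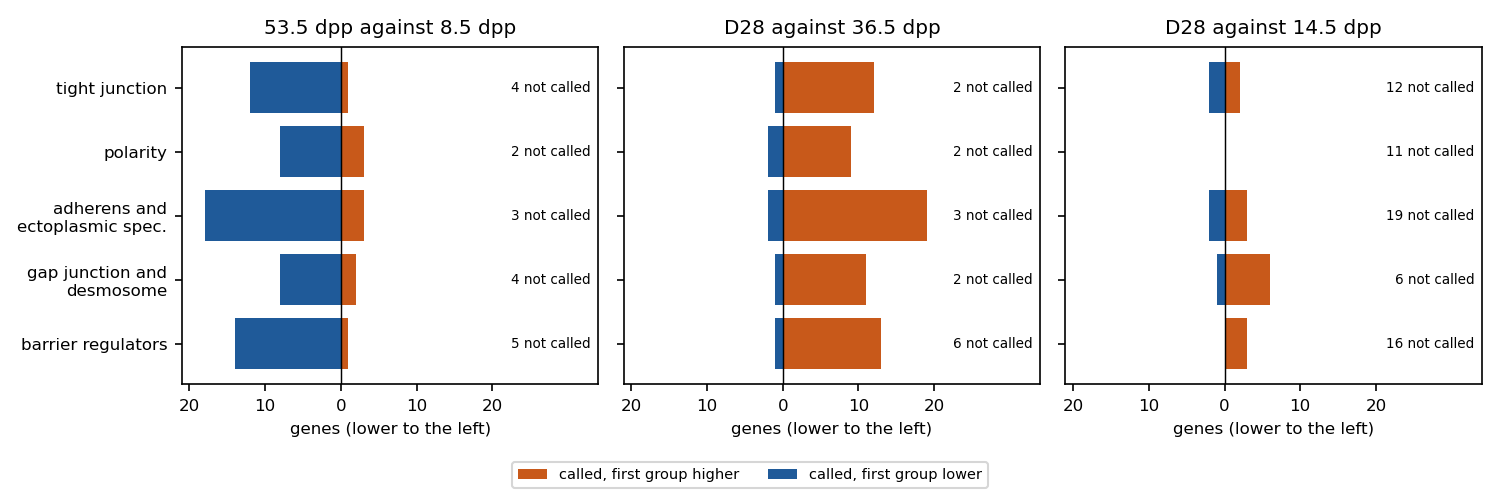
Number of genes of 5 junction lists called higher (right) or lower (left) in the first group named above each panel, with the number not called at the right edge. The 64 higher and 7 lower genes of D28 against 36.5 dpp stand beside 10 higher and 60 lower for 53.5 against 8.5 dpp, and 14 higher and 5 lower for D28 against 14.5 dpp.

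The members' likeness over the 29 libraries is given as a description, since the points share ages, libraries and depth. Ocln, F11r, Jam2 and Cdh2 followed each other closely (Pearson r of log2(FPKM + 1) of 0.957 to 0.990). Jam3 had r of 0.324 with Cdh2 and 0.651 with Tjp1, and Cldn3 had negative r with all others (-0.574 with Cldn11 to -0.853 with Tjp1). Among 12762 genes, those most like Cldn11 were Gpr37, Wnk4 and Mpzl2 (r of 0.942, 0.940 and 0.939). For Cldn3 they were Mlph, Or14j5b and Cyp2g1 (r of 0.996, 0.993 and 0.991). Ocln was most like Gprasp1, Pard6b and Slc38a2 (r of 0.994, 0.992 and 0.991), and Tjp1 most like Taf1, Usp9x and Trpm7 (r of 0.973, 0.970 and 0.969). F11r was most like Zdhhc2, Wbp1l and Cytip, with r of 0.995 to 0.996, Jam2 most like Fat1, Appbp2 and Sema3c, with r of 0.992 to 0.994, and Gja1 most like Rad21, Fam168a and Zbtb14, with r of 0.993 to 0.994. Jam3 had lower values, with r of 0.948, 0.937 and 0.935 for Zhx1, Vps29 and Tcaim. For Cdh2 they were Tmem117, Mafk and Zdhhc2 (r of 0.990, 0.987 and 0.987).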

How the data were processed

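RNA was extracted from rat testes of 6 ages and from cultured tissues of 4 times, and poly(A) RNA was sequenced by the authors as 50 bp single reads. The submitters' processing notes and the study's methods name STAR 2.5.2a, StringTie 1.3.3 and the rn6 genome with RefSeq genes, and the authors deposited FPKM per gene (named RPKM in the study). Genes carry Entrez Gene identifiers, of which 17172 of 17322 were matched to a symbol in a RefSeq table.

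From these values log2(FPKM + 1) was computed here. A gene entered a fit if the median of some compared group reached 0.5 FPKM, and fits were made with limma 3.58.1 (R 4.3.3, lmFit and eBayes) over all such genes, with Benjamini-Hochberg adjustment. The 6 ages entered 1 fit, each age-matched pair its own fit, and the comparisons with 14.5 dpp, with 8.5 dpp and within culture 1 fit each. Library totals were not used here, so intervals from counts are not given, and relative depth comes from the step between low values. The study describes in vivo replicates as different testes and cultured replicates as pools of fragments from at least 3 males, with at least 9 animals a time point. The labels name no animal, and p-values measure the spread between these samples.

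The members and gene lists were chosen with earlier results of these data known. Text names all members, at most 3 genes a list (the largest changes called in D28 against 36.5 dpp, D28 against 14.5 dpp and 53.5 against 8.5 dpp) and the 3 genes most like each member, and Cttn, Myh9, Prm1 and Leydig cell markers were added after values were seen. Symbols missing from the table were not analysed here. Some genes that this rule names are not reported here. Alternatives changed the pseudocount, filter, ratio limit, variance trend, normalization, samples in the fit, replicate block and Sertoli cell reference, and left out each library in turn. The test was tested on simulated data. The 14.5 dpp library labelled as an outlier, at 0 for every gene, was left out.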

Additional observations from a re-analysis of the deposited data

Results flagged for a closer look

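The change from D6 to D28 in culture was compared with the change from 14.5 to 36.5 dpp in vivo by an interaction term in limma, a comparison added after the data were seen. A positive value means that the culture change lay above the in vivo change. The term was called for 7 members other than Cldn3, where 65.9% of all tested genes were called and their median was 0.63. It was 4.25 ± 0.25 for Cldn11, 3.20 ± 0.26 for Jam2, 3.11 ± 0.25 for Ocln, 2.96 ± 0.21 for F11r, 2.70 ± 0.18 for Gja1, 2.58 ± 0.27 for Cdh2 and 1.17 ± 0.23 for Tjp1, all above 0. For Cldn3 it was -2.18, given as a description with no test, because Cldn3 passed the filter on low values only through 36.5 dpp. Jam3 had 0.63 ± 0.20 and was not called, with a ratio of medians of 1.55. For Cldn11, D28 exceeded D6 in all libraries and 36.5 dpp lay below 14.5 dpp in all libraries. The Tjp1 call was lost without D28 replicate 2 (1.03). Sertoli cell markers moved with the term: 12 of 14 tested were called higher. Germ cell markers had 9 of 12 called lower. Their part was not tested.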

How the results depend on the processing

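Of 3908 recomputed values with a test, 3790 kept their direction and their side of the threshold. The calls of 6 members higher at D28 than at 36.5 dpp kept both under every alternative run. Dropping the ratio of medians raised the number of members called from 1 to 2 for D6 against 14.5 dpp, from 4 to 7 for D16 against 24.5 dpp, from 2 to 4 for culture against 14.5 dpp, from 4 to 7 for culture against 8.5 dpp (F test) and from 1 to 5 within culture. Relative to Sox9 and Wt1 it gave 2 for D6 against 14.5 dpp, 6 for D16 against 24.5 dpp and 8 for D22 against 30.5 dpp, and the first of these was 0 with a pseudocount of 0.1. Leaving out a library gave 0 to 1 members for D6 against 14.5 dpp, on either scale. Quantile normalization gave 2 members for that pair, and moved the median of all genes by 0.39 for 53.5 against 8.5 dpp and by -0.22 for D28 against 36.5 dpp. With it the share of calls that were higher went from 34.9% to 45.3% for 30.5 against 24.5 dpp, from 40.0% to 84.6% for 53.5 against 36.5 dpp and from 61.4% to 50.7% for D6 against 8.5 dpp. The Cdh2 fall from 24.5 to 30.5 dpp was then not called (-0.88), nor was F11r at D22 against 14.5 dpp (0.90).

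Same-numbered replicates deviated together in no consistent way in the pairs of groups checked, with r of -0.13 to 0.22. With 2 or 3 libraries a group, such a check cannot exclude a shared culture run or litter. With the number as a replicate block, the count for D6 against 14.5 dpp was 0, and Cldn11 there had -1.15 (adjusted p = 0.0562).

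Values near 0 turned sign, and none of them was called. Gja1, 14.5 dpp against 8.5 dpp, was 0.17 with quantile normalization, 0.034 with the block and -0.10 to 0.082 when libraries were left out. Jam3, D22 against 30.5 dpp, was -0.22 with quantile normalization and -0.21 to 0.13 when libraries were left out, and Jam3, D28 against 36.5 dpp, was -0.065 with quantile normalization. Jam2, D28 against 14.5 dpp, was -0.0051 with quantile normalization and -0.016 to 0.26 when libraries were left out. The same omissions gave -0.56 to 0.61 for Cldn11, 53.5 dpp against 8.5 dpp, -0.33 to 0.093 for Ocln, D6 against 14.5 dpp, -0.34 to 0.014 for Jam3, D22 against 14.5 dpp, -0.21 to 0.065 for Tjp1, D28 against 14.5 dpp, and -0.064 to 0.11 for Jam3, D28 against D6. Relative to Sox9 and Wt1, Gja1, 53.5 dpp against 8.5 dpp, was 0.14 with a pseudocount of 0.1 and -0.15 to 0.083 when libraries were left out, and Gja1, 24.5 dpp against 14.5 dpp, was -0.035 with 6 markers. There Ocln, 14.5 dpp against 8.5 dpp, was -0.012 to 0.22 and Jam2, 14.5 dpp against 8.5 dpp, -0.11 to 0.31. The cause of these shifts was not tested. Fold changes of Cldn3 below 1 FPKM are limited by the low level, and depth is known only in relative terms.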
